A study of Mus musculus with 8 samples.

Results

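The 9 genes described here are Stmn1, Stmn2, Stmn3 and Stmn4, which make up the stathmin family, and Tubb3, Dcx, Mapt, Map2 and Gap43, which neurons use to build and extend their processes. They were read from 8 Affymetrix arrays of E11.5 mouse embryos. Control and FAK mutant cells were compared in 4 origins, with 1 array for each origin and genotype. FAK, focal adhesion kinase, is a kinase of integrin adhesions. The p75 arrays came from cranial neural crest cells of head and thorax that had been sorted for p75, the crest receptor encoded by Ngfr, with 3 embryos pooled per array. The LM, OFT and UM arrays carry only these letters, which the labels do not spell out, so their tissue is not named here. The allele, the driver of the mutation, the strain and how many embryos went into an LM, OFT or UM array are not given by the labels. The transcript of FAK itself was not analysed here.

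The genes were chosen by symbol, with earlier results on the origins and the mutant and control pairs of these same arrays in view, so the tests below describe them and are not independent support. Of 45101 probe sets on the array, 21 are annotated to exactly 1 of these symbols, against 18193 genes in all. Each gene was represented by its brightest probe set, selected on the mean log2 signal over the 8 arrays. A gene was tested where its intensity exceeded 19.4, the 40th percentile of the whole table, on 2 or more arrays. All 9 genes were among the 13543 tested, and none failed the filter. Nearest to its edge were Stmn4, above this level on 5 arrays, and Mapt, on 6.

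The arrays differed in more than origin. The 3′ to 5′ ratio of the Gapdh control probe sets was 2.82 in the p75 control and 4.91 in the p75 mutant. Elsewhere it was 0.70 to 0.99. The same ratio for Actb, beta actin, was 1.57 and 1.65 in p75, within the 1.42 to 1.94 of the other arrays. The p75 arrays were also the only ones labelled as sorted and pooled. Over the tested genes the LM mutant correlated with the UM control at r = 0.983 and with the LM control at 0.981, so the LM pair was no closer than these arrays of 2 origins.

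Microtubules are hollow polymers of alpha and beta tubulin that grow and shrink at their ends. Stathmins bind free tubulin dimers and favour shrinkage, doublecortin, tau and Map2 bind along the polymer and stabilise it, and phosphorylation of either group loosens its hold. In the embryo, Stmn1 is made by many dividing cells, whereas Stmn2, Stmn3, Stmn4, Tubb3, Dcx, Mapt and Map2 mark young neurons, and cranial neural crest gives rise to sensory and autonomic neurons as well as glia and facial mesenchyme.

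RefSeq promoters were available for 4 of the genes, Stmn3, Tubb3, Dcx and Map2, and are shown because these genes shared a pattern over the arrays. Each runs from 250 bases before to 50 after the annotated start, 5′ to 3′ on the strand of the gene, in build GRCm38.p6. Capitals mark the E-box letters CANNTG, the GC box GGGCGG and the TATA letters TATAAA, searched on both strands. None of these motifs overlapped another.

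Stmn3, chr2:181314451-181314750, minus strand: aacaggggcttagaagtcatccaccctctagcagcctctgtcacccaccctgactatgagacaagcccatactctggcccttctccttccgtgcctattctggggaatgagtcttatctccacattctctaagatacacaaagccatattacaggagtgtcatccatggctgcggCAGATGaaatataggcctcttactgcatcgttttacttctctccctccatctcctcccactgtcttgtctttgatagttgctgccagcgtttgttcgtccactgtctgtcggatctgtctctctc

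Tubb3, chr8:123411303-123411602, plus strand: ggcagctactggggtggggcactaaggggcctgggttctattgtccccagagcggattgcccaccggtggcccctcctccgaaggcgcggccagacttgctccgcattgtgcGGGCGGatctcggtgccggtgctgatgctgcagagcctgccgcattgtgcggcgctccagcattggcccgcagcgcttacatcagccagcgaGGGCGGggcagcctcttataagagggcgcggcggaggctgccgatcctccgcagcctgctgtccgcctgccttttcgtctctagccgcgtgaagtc

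Dcx, chrX:143933170-143933469, minus strand, the first of 2 listed starts: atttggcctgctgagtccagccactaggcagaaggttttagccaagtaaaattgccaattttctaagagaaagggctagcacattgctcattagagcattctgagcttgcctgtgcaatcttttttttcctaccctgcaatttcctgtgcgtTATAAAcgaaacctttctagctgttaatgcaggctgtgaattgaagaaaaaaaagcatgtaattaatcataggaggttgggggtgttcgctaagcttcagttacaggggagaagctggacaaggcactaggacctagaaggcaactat

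Map2, chr1:66175079-66175378, plus strand: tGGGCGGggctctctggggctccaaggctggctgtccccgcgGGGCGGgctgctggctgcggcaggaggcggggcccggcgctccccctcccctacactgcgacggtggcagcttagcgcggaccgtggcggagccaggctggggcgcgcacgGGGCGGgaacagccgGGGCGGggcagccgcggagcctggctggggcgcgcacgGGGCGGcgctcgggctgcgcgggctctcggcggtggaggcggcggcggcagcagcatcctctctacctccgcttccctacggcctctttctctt

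The promoters did not share one layout. The Stmn3 window held 1 E-box, of the form CAGATG, and no GC box. The Tubb3 and Map2 windows held 2 and 5 GC boxes and no E-box. The Dcx window held the TATA letters and neither of the others. Of 32851 RefSeq promoters of the same length, 72.3% held CANNTG, 17.2% CAGATG or its reverse complement, 35.7% GGGCGG and 13.6% TATAAA. The GC content was 49.7% for Stmn3, 67.3% for Tubb3, 43.0% for Dcx and 77.7% for Map2, with a median of 52.7% over all promoters.

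Stmn1, the ubiquitous stathmin, was bright on every array. Its intensity was 7217 in the p75 control and 9963 in the p75 mutant, 9298 and 6937 in LM, 5966 and 5601 in OFT, and 6447 and 8167 in UM, in the order control and mutant. No origin stood far from another, and only the OFT arrays lay below all others.

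Stmn2, a stathmin of growth cones also called SCG10, separated LM from the other origins. Its intensity was 766 and 499 in the p75 control and mutant, 24.3 and 53.7 in LM, 572 and 321 in OFT, and 386 and 325 in UM. Both LM arrays were lower than every other array, while p75, OFT and UM overlapped.

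Stmn3, a stathmin of neurons, was highest in p75-sorted cells. It read 1269 and 826 in the p75 control and mutant, 32.5 and 42.4 in LM, 266 and 128 in OFT, and 146 and 49.2 in UM. The p75 arrays did not overlap with any other, OFT and UM overlapped, and LM was lowest.

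Stmn4, also a neuronal stathmin, had its highest level in OFT. It read 110 and 78.1 in the p75 control and mutant, 9.09 and 7.18 in LM, 177 and 199 in OFT, and 63.5 and 12.4 in UM. The order OFT, p75, UM, LM held without overlap, and both LM arrays and the UM mutant were below the level of 19.4.

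Tubb3 encodes the beta tubulin that is most specific to neurons. Its intensity was 860 and 527 in the p75 control and mutant, 49.7 and 59.2 in LM, 228 and 117 in OFT, and 201 and 152 in UM. The p75 arrays were above and the LM arrays below all others, and OFT and UM overlapped.

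Dcx encodes doublecortin, a microtubule stabiliser of migrating and newly made neurons. It read 532 and 485 in the p75 control and mutant, 87.0 and 82.6 in LM, 241 and 215 in OFT, and 135 and 58.6 in UM. Here p75 came first and OFT second without overlap, and UM and LM overlapped.

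Mapt encodes tau, the axonal microtubule protein, and read 195 and 121 in the p75 control and mutant, 33.4 and 14.1 in LM, 74.2 and 33.7 in OFT, and 23.8 and 17.8 in UM. Its p75 arrays were highest, OFT came next, and LM and UM overlapped near the level of 19.4.

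Map2, the dendritic counterpart of tau, read 1023 and 671 in the p75 control and mutant, 243 and 204 in LM, 345 and 338 in OFT, and 322 and 319 in UM. The 4 origins did not overlap, but OFT and UM lay close together.

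Gap43 encodes a membrane protein of the growth cone that is modified by protein kinase C. It read 1181 and 1209 in the p75 control and mutant, 345 and 288 in LM, 424 and 242 in OFT, and 495 and 542 in UM. The p75 arrays were highest and UM second, and OFT and LM overlapped.

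**Figure D1:**
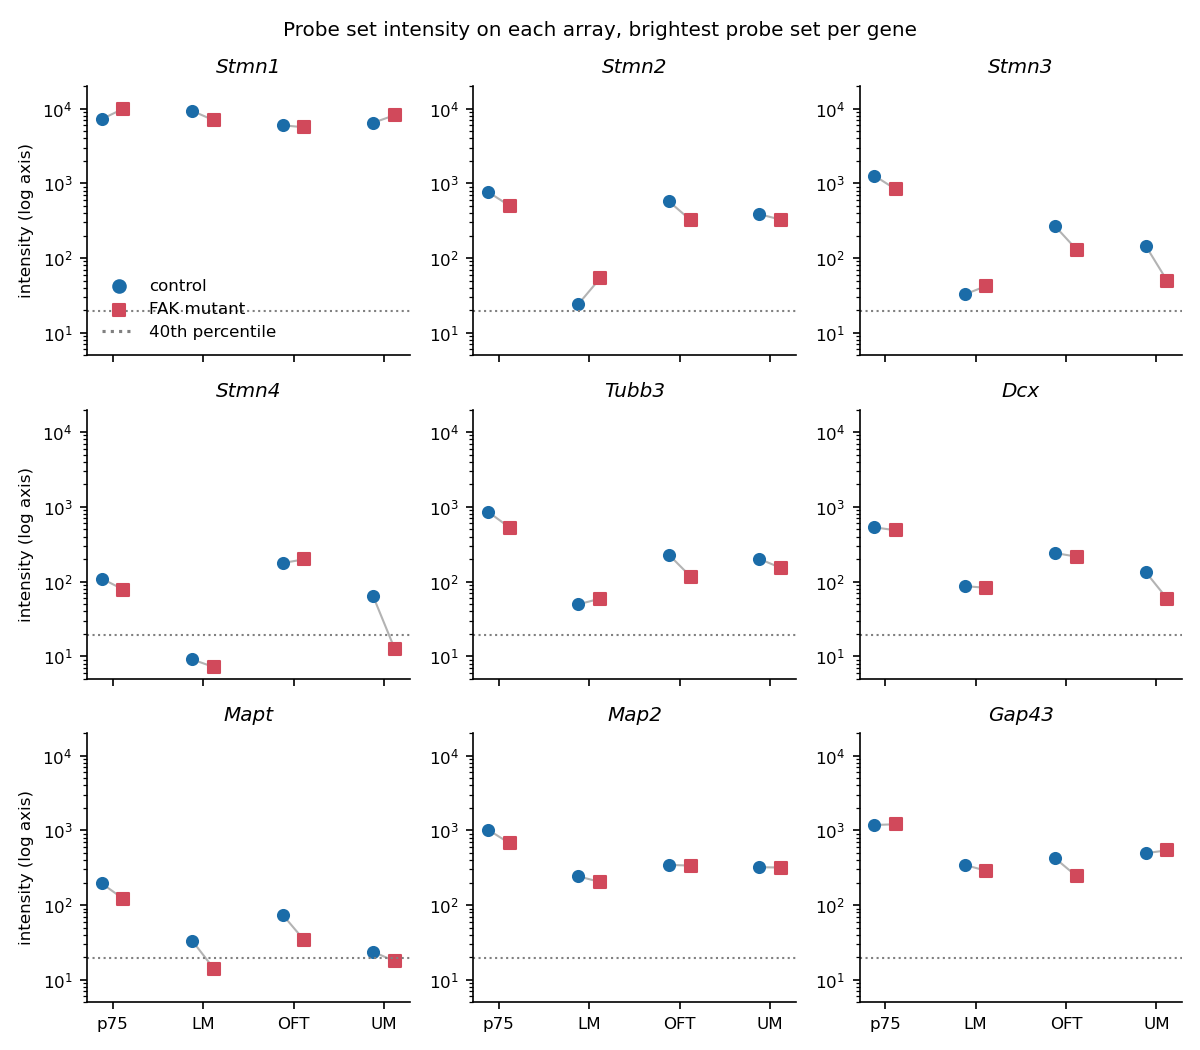
Intensity of the brightest probe set of each gene (log axis) on the 8 arrays, with circles for controls, squares for FAK mutants, a line joining the arrays of a pair, and the 40th percentile of all values dotted at 19.4. Stmn1 reads at least 5601 everywhere, Stmn2 drops to 24.3 and 53.7 in LM, and the p75 arrays are highest for 6 of the 9 genes.

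Setting p75-sorted cells against the average of the other 3 origins asks which of these genes mark the sorted crest population. All 9 lay above 0, although Stmn1 lay at -0.36 when read from its other probe set, and 8 rose, where limma called 28.2% of all tested genes higher and 18.9% lower. Stmn3 rose by 3.11 ± 0.22 in log2 units (SE from limma, 2 arrays per origin), or 8.65-fold, with adjusted p = 1.1e-06, from an _x_at probe set; its other probe set gave 1.59 with adjusted p = 1.7e-05, below Tubb3 and Dcx. Tubb3 rose by 2.22 ± 0.18, Dcx by 1.80 ± 0.18, Gap43 by 1.59 ± 0.18, Mapt by 1.58 ± 0.15, Stmn2 by 1.49 ± 0.22 and Map2 by 1.42 ± 0.16, with adjusted p of 0.00021 or lower. The other Stmn2 probe set gave 0.42, with its p75 mean below those of OFT and UM, and the mean of the probe sets gave 0.96 for Stmn2 (adjusted p = 0.0070), 1.16 for Dcx (0.00014) and 0.32 for Map2 (0.04958). Stmn4 rose by 0.59 ± 0.21 with adjusted p = 0.035, and Stmn1 differed by 0.28 ± 0.18 with adjusted p = 0.22, or by 0.61 with adjusted p = 0.0030 after quantile normalization, where it passed. The median over the 9 genes was 1.58, beside 0.07 over all tested genes. Both p75 arrays were above all 6 others for Stmn3, Tubb3, Dcx, Mapt, Map2 and Gap43, 6 of 9, as for 27.9% of all tested genes.

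The Stmn4 call was the weakest of these. Its adjusted p was 0.19 without the p75 control, 0.20 without the p75 mutant, 0.086 without the OFT control and 0.051 without the UM mutant, with differences of 0.42 to 0.60. It also missed at pseudocounts of 1 (0.076) and 64 (0.069) and with no filter (0.069). The other 7 genes that rose still passed with either p75 array left out. Since the Gapdh ratio (not that of Actb) and the sorting set the p75 arrays apart, sorting, origin and RNA quality cannot be separated.

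Against OFT alone the picture for the stathmins changed. Stmn3, Tubb3, Dcx, Mapt, Map2 and Gap43 were higher in p75-sorted cells, 6 of 9, where limma called 19.2% of genes higher and 15.3% lower. The differences ran from 1.06 ± 0.22 for Dcx to 2.27 ± 0.27 for Stmn3, with adjusted p of 0.0030 or lower. Stmn4 was lower, by -0.82 ± 0.26 with adjusted p = 0.027. Stmn2 differed by 0.50 ± 0.27 with adjusted p = 0.18, and Stmn1 by 0.55 ± 0.22 with adjusted p = 0.072.

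Markers of other cells were read beside these levels. The summed intensity of 6 glial and crest stem markers, among them Sox10 and Ngfr, was 9529 and 10958 on the p75 arrays. It was 498 to 1560 on the others, so the sorted cells carried the markers of their label. Ngfr encodes the receptor used for the sort. In p75-sorted cells 6 of 8 skeletal muscle markers also rose by limma, and 0 fell. Of 20 neuron markers with a probe set, such as Elavl4, Nefl and Isl1, 16 rose in p75-sorted cells by limma and 0 fell. Of 7 neural progenitor markers Nes, Neurog2, Sox2 and Pax6 rose, 4 in all, by 2.18 ± 0.40 to 0.39 ± 0.14, and 0 fell. The summed intensity of the 20 neuron markers was 7141 in the p75 control and 4220 in the p75 mutant. It was 6046 and 3960 in OFT, 2547 and 1498 in UM, and 896 and 1485 in LM. Relative to this sum, that of the 8 genes other than Stmn1 was 0.83 and 1.05 in p75 and 0.38 and 0.40 in OFT. In UM the ratio was 0.70 and 0.98, and in LM 0.92 and 0.51. In LM 10 and 12 of the 20 markers were above the level of 19.4, against 16 to 19 on the other arrays. In such mixed samples a lower share of neurons and less RNA per neuron cannot be told apart.

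OFT was then set against the mean of LM and UM. Stmn4, Stmn2, Stmn3, Dcx and Mapt rose, 5 of 9, and none fell, where limma called 11.3% of genes higher and 3.89% lower. Stmn4 rose by 2.10 ± 0.22, or 4.30-fold, with adjusted p = 3.5e-05. Stmn2 rose by 1.50 ± 0.24 with adjusted p = 0.00096, Stmn3 by 1.26 ± 0.23 with 0.0026, Dcx by 1.12 ± 0.19 with 0.0015 and Mapt by 0.64 ± 0.16 with 0.019. Tubb3 differed by 0.56 ± 0.20 with adjusted p = 0.078, Map2 by 0.32 ± 0.17 with 0.24 (and by -0.05 as the mean of its probe sets), Gap43 by -0.31 ± 0.19 with 0.31 and Stmn1 by -0.40 ± 0.19 with 0.19. The median of the 9 genes was 0.64 and that of all tested genes 0.01. Among neuron markers 9 of 20 rose and 0 fell, Nefm by 2.57 ± 0.37 and Nefl by 2.15 ± 0.37. Of 6 glial and crest stem markers 3 rose, Ednrb by 1.78 ± 0.20, Erbb3 by 0.90 ± 0.18 and Ngfr by 0.87 ± 0.19, and their part in the OFT levels was not tested.

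Without the OFT control only Stmn4 and Dcx passed, with Stmn2 at 1.14 (adjusted p = 0.061), Stmn3 at 1.07 (0.10) and Mapt at 0.50 (0.36); Mapt also missed without the OFT mutant, at 0.78 (0.070), and without the UM control, at 0.53 (0.060), while Tubb3 passed without the LM mutant, at 0.75 (0.0093). Stmn3 missed from its other probe set, at 0.41 with adjusted p = 0.17, and Stmn1 passed as lower from its other probe set, at -0.89 with adjusted p = 0.0058, and as the mean of both, at -0.64 with 0.0047. At a pseudocount of 1 Stmn2 had 1.90 (0.060) and Stmn3 1.70 (0.068). As the mean of its probe sets Dcx had 0.50 (0.041) and Stmn3 0.84 (0.011).

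LM against UM separated Stmn2 and Tubb3. Both were lower in LM, 2 of 9, and none rose, where limma called 0.812% of genes lower and 0.738% higher. Stmn2 fell by 2.47 ± 0.27 on the log2 scale, or 5.56-fold, with adjusted p = 0.00037, and Tubb3 fell by 1.26 ± 0.23 with adjusted p = 0.013. Stmn3, Stmn4, Gap43 and Map2 had differences of -0.80 to -0.47 with adjusted p of 0.26 to 0.48. Stmn1, Mapt and Dcx lay between -0.07 and 0.15, and each took either sign when 1 array was left out. The median of the 9 genes was -0.66, and that of all tested genes was 0.00 after rounding. Both LM arrays were below all 6 others for Stmn2, Stmn3, Stmn4, Tubb3 and Map2, 5 of 9, as for 6.39% of tested genes. Beside them 4 of 20 neuron markers fell and 0 rose, with Neurod1 at -1.97 ± 0.25, Elavl4 at -1.57 ± 0.29, Nhlh2 at -1.51 ± 0.24 and Nhlh1 at -1.32 ± 0.18. Of 7 tested neural progenitor markers 4 fell, Sox2, Pax6, Neurog1 and Sox3, with differences of -1.65 to -0.87.

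Tubb3 missed the threshold without the LM control, at -0.88 with adjusted p = 0.16, without the UM control, at -1.31 with 0.071, and without the UM mutant, at -1.21 with 0.11. It also missed at a pseudocount of 1, at -1.67 with 0.16, and narrowly with no filter, at 0.05018. Stmn3 passed without the LM mutant, at -1.34 with 0.0076, and Stmn4 without the UM mutant, at -1.20 with 0.040; at a pseudocount of 1 Stmn2 had -3.26 with adjusted p = 0.088.

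**Figure D2:**
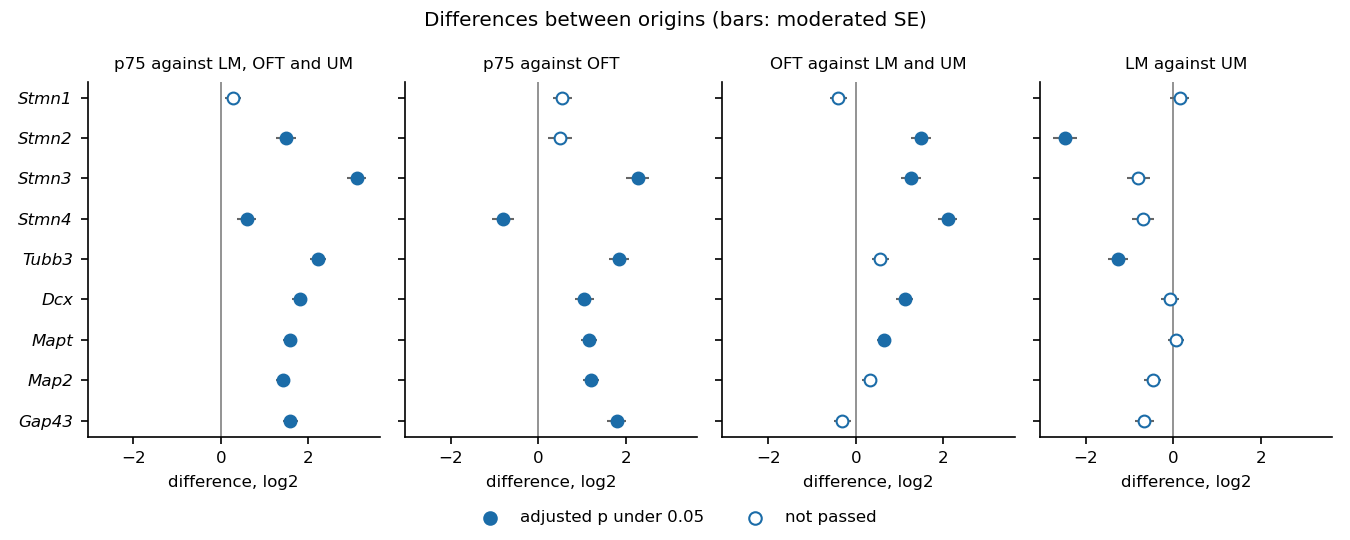
Difference between origins on the log2(intensity + 32) scale for each gene in 4 contrasts, with moderated SE as bars and filled points for adjusted p under 0.05. Stmn3 lies at 3.11 in p75 against the others, from an _x_at probe set, Stmn4 lies at -0.82 in p75 against OFT, and Stmn2 lies at -2.47 in LM against UM.

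Mutant against control asks which of these transcripts change in FAK mutant cells over the 4 pairs. In the mean over pairs 8 of 9 genes lay below 0 and only Stmn1 above it, or at -0.01 after quantile normalization. Of all 13543 tested genes 7377 lay below 0. None passed. Limma called 0 of 13543 genes, or 0.00%, in this contrast, and 412 had an unadjusted p under 0.05, among them Mapt, Stmn3 and Tubb3. Mapt differed by -0.48 ± 0.13 (moderated SE, n = 4 pairs), Stmn3 by -0.61 ± 0.19 and Tubb3 by -0.42 ± 0.16. Stmn4 lay at -0.35 ± 0.18, Dcx at -0.30 ± 0.15, Stmn2 at -0.25 ± 0.19, Map2 at -0.21 ± 0.14, Gap43 at -0.20 ± 0.15 and Stmn1 at 0.07 ± 0.16, and the adjusted p was 0.9997 for each of the 9. The median of the 9 genes was -0.30, beside -0.01 over all tested genes. With 4 pairs an exact two-sided sign-flip test of 1 gene cannot give a p below 1 in 8.

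The differences of single pairs, each of 1 control and 1 mutant array, carry no test of their own. Stmn2, Stmn3, Tubb3, Dcx, Mapt and Map2 were lower in the mutant of the p75, OFT and UM pairs, 6 of 9, as were 11.0% of tested genes. This rule left out the LM pair and was set with earlier results of these arrays in view. The 6 of 9 beside 11.0% is therefore only descriptive. Stmn2 differed by -0.59 in p75, -0.78 in OFT and -0.23 in UM, and by 0.61 in LM. Tubb3 differed by -0.68, -0.81 and -0.34 in those 3 pairs and by 0.16 in LM. Stmn3 differed by -0.60, -0.89 and -1.13 in them, and by 0.20 in LM. From its other probe set Stmn3 lay at -0.10 in LM and was lower in the mutant of all 4 pairs. By their brightest probe sets Dcx, Mapt and Map2 were lower in the mutant of all 4 pairs, which was not counted over all tested genes. For Mapt these differences ran from -0.69 in OFT to -0.16 in UM, for Map2 from -0.59 in p75 to -0.01 in UM, and for Dcx from -0.88 in UM to -0.05 in LM. None of their other probe sets was lower in all 4 pairs. Dcx 1418139_at and Mapt 1424719_a_at were lower in 3 pairs and higher in LM, by 0.43 and 0.40. Mapt 1455028_at and Map2 1440699_at were lower in 2 pairs and higher in 2. Stmn4 differed by -1.10 in UM and by -0.36, -0.07 and 0.14 in p75, LM and OFT, and Gap43 by -0.73 in OFT and by 0.03, -0.24 and 0.12 in p75, LM and UM.

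By pair, 7 of 9 genes were lower in the p75 mutant, where 52.3% of tested genes were, 6 in the LM mutant (55.1%), 8 in the OFT mutant (57.2%) and 7 in the UM mutant (43.1%). The difference of each pair was tested against that of the other 3 in a model with its own genotype term. A tested pair is 1 array per genotype, which was assumed to vary like the others, so these tests have little power. Over all tested genes Xist came first in the test of the p75 pair. The sex of the embryos was not considered here. None of the 9 genes passed in any of these 4 tests, in which limma called 0.00738% of genes for p75, 0.00% for LM, 0.00738% for OFT and 0.00% for UM. For LM the smallest adjusted p of the 9 was that of Stmn2, at 0.51, with a difference between pairs of 1.14 ± 0.32. The numbers of the 9 genes with an unadjusted p under 0.05 were 0 for p75, 3 for LM, 1 for OFT and 2 for UM. Over all 13543 tested genes these numbers were 604 for p75, 994 for LM, 284 for OFT and 828 for UM.

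**Figure D3:**
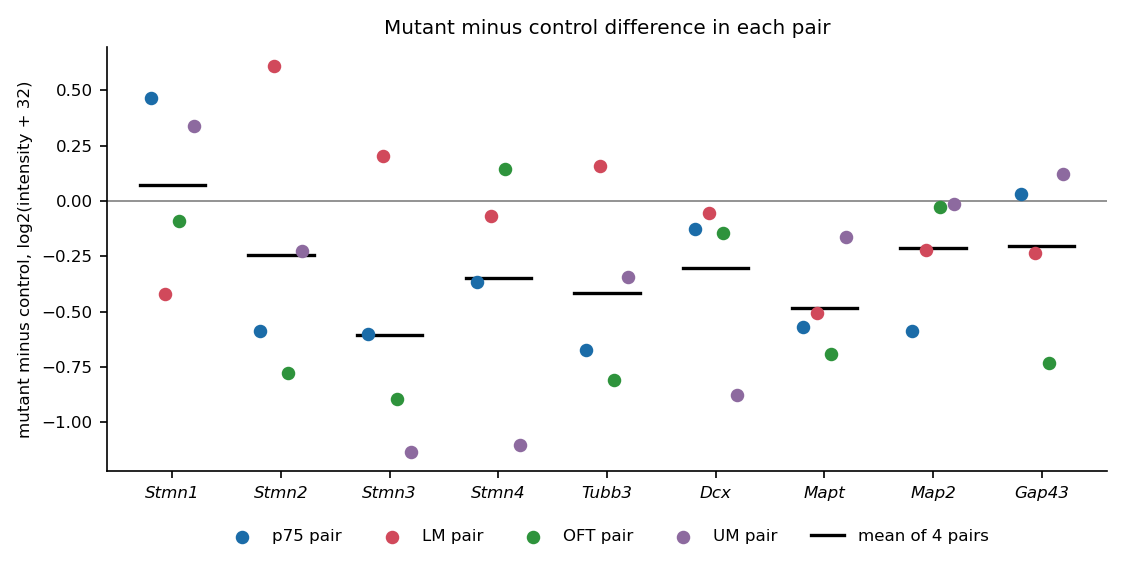
Mutant minus control difference of the brightest probe set on the log2(intensity + 32) scale, 1 point per pair and gene. The mean of the 4 pairs is a bar. The LM points of Stmn2, Stmn3 and Tubb3 lie above 0 at 0.61, 0.20 and 0.16, while their other 3 points lie below 0.

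The median over neuron markers had the same sign as that over the 9 genes in the p75, OFT and UM pairs and not in LM. Over 20 markers the median was -0.53 in the p75 pair with 19 lower, -0.42 in OFT with 19 lower, -0.46 in UM with 17 lower, and 0.37 in LM with 3 lower. The 8 genes other than Stmn1 had medians of -0.58 in p75, -0.71 in OFT and -0.28 in UM, and of -0.06 in LM. The part of neuron content in the mutant differences was not tested. By limma 0 of the 20 neuron markers passed in mutant against control, and 4 had an unadjusted p under 0.05.

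Other genes of the microtubule system were read from fixed lists. Of 13 other tubulins and 27 other microtubule proteins of neurons, 0 passed by limma in mutant against control, with 0 and 2 at an unadjusted p under 0.05. The medians over these tubulins were -0.11, 0.08, -0.08 and 0.13 in the p75, LM, OFT and UM pairs, and over the microtubule proteins -0.21, 0.03, -0.26 and 0.11. Those of the microtubule proteins were Crmp1, which binds tubulin in growth cones, at -0.37 ± 0.17 and Dclk2, a relative of doublecortin, at -0.32 ± 0.14. Kif5a, a kinesin motor of axons, lay at -0.44 ± 0.22. For 14 growth cone proteins the medians were 0.09, -0.10, -0.31 and 0.03, and for 17 kinases and phosphatase genes acting on these proteins -0.05, 0.09, -0.04 and -0.02, again with 0 passing and 1 and 0 at an unadjusted p under 0.05.

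**Figure D4:**
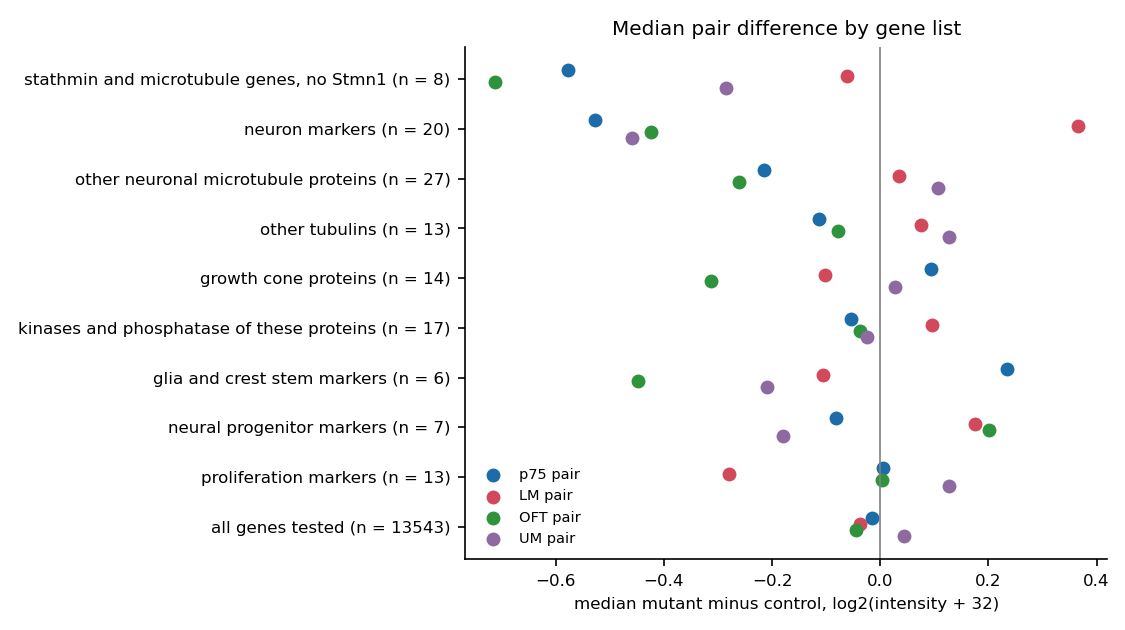
Median mutant minus control difference on the log2(intensity + 32) scale for each gene list, 1 point per pair, with the number of tested genes. Neuron markers lie at -0.53, -0.42 and -0.46 in p75, OFT and UM and at 0.37 in LM, and all tested genes lie within 0.05 of 0.

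Between origins members of the same lists passed in both directions. In p75 against the other 3 origins, where 28.2% of all genes were higher and 18.9% lower, 5 of 13 other tubulins rose and 1 fell, with Tubb6 at 1.59 ± 0.18, Tubb2a at 1.55 ± 0.27 and Tubb2b, a beta tubulin of young neurons, at 1.04 ± 0.16. Among 27 microtubule proteins 15 rose and 2 fell, led by Crmp1 at 3.18 ± 0.20 and Map6, which protects microtubules from cold, at 2.31 ± 0.21. Of 14 growth cone proteins 8 rose and 1 fell, with the adhesion molecules L1cam at 2.93 ± 0.16 and Ncam1 at 2.07 ± 0.15. Of 17 kinases and phosphatase genes 6 rose and 1 fell, with Mapk10, a JNK that phosphorylates stathmins, at 1.57 ± 0.20 and Cdk5r1, the activator of the tau kinase Cdk5, at 1.50 ± 0.14.

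OFT against LM and UM called 3 of 13 tubulins, 3 of 27 microtubule proteins, 3 of 14 growth cone proteins and 3 of 17 kinases and phosphatase genes higher, beside 11.3% of all genes, and 1 growth cone protein, Fez1, lower. Dpysl3, a relative of Crmp1, rose by 2.03 ± 0.16, Ncam1 by 1.36 ± 0.16 and Prkcb, a protein kinase C, by 1.49 ± 0.21. In LM against UM Dpysl3 was lower by -0.82 ± 0.18 with adjusted p = 0.043, and Rtn1, a reticulon of neurons, by -1.54 ± 0.22 with adjusted p = 0.0031, and no tubulin or kinase passed.

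The probe sets of one gene did not always move together. Of the 21 probe sets 16 had a mean mutant difference below 0 and 17 a higher mean in p75 than elsewhere, and these values carry no test. For Stmn2, Stmn3 and Mapt each other probe set correlated with the brightest one at r = 0.90 to 0.95 over the 8 arrays. The Stmn2 probe sets still ranked the origins differently: 1423281_at read 396 and 188 in p75, 27.6 and 64.01 in LM, 468 and 330 in OFT, and 378 and 308 in UM, in the order control and mutant. It was lowest in LM, like 1423280_at, but not highest in p75. For Stmn1 the correlation was 0.11. The brighter Stmn1 probe set, 1415849_s_at, differed by 0.46 in the p75 pair and -0.42 in LM, whereas 1448113_at differed by -0.49 and 0.50, with intensities of 660 to 1492. The direction of Stmn1 in these pairs therefore depended on the probe set read. Probe sets ending in _s_at or _x_at, among them the brightest of Stmn1 and Stmn3, can match more than 1 transcript.

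Map2 was split in the same way. 1434194_at and 1440699_at were higher in p75 than elsewhere, by 1.42 and 1.13, and 1421328_at and 1421327_at lower, at -0.68 and -0.59. Intensities of 1421328_at were 31.8 and 21.6 in the p75 control and mutant and 47.0 to 85.7 on the other arrays. The positions of these probe sets in the Map2 transcripts were not used here. For Dcx, 1418139_at followed the brightest probe set at r = 0.96 and read 1091 and 662 in p75, against 38.2 to 206 elsewhere, while 1448974_at stayed at or below 30.6 on all arrays.

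**Figure D5:**
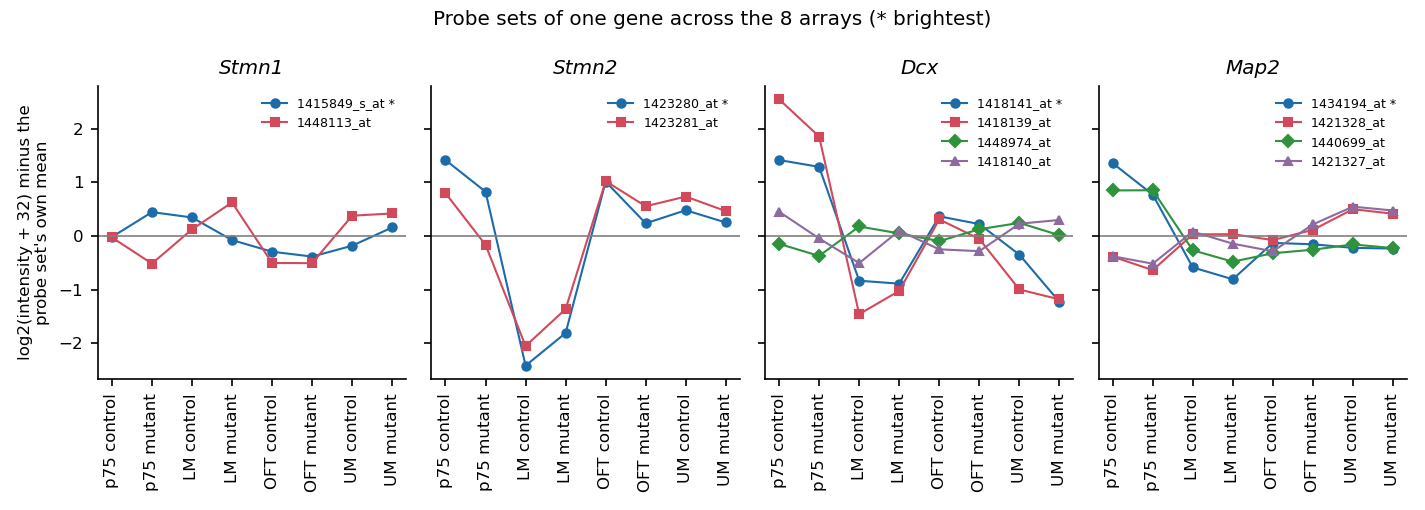
Log2(intensity + 32) of every probe set of Stmn1, Stmn2, Dcx and Map2 on the 8 arrays, each relative to its own mean, with an asterisk at the brightest. The Stmn2 probe sets are both low in LM but differ in p75, the Stmn1 probe sets cross between p75 and LM, and 2 of the 4 Map2 probe sets are low in p75.

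The genes also differed in which other transcripts they resembled. Over the 8 arrays, which share 4 origins, the correlation of log2 values between pairs of the 8 genes other than Stmn1 ran from 0.15 for Stmn4 with Gap43 to 0.96 for Stmn3 with Dcx, with a median of 0.81. Stmn1 correlated with them at -0.57 to 0.51. Among the 6771 tested genes above the median signal, those most like Stmn2 by Pearson's r were Rtn1, Ints6, Id4, Sipa1l1, Map1b and Gpc4, at r = 0.95 to 0.96. Those most like the brightest probe set of Stmn1 were Tuba1a, Rps3, Smu1, Cct5, Wbp4 and Hnrnpc, at r = 0.96 to 0.98. The other Stmn1 probe set correlated with the brightest at 0.11, so this likeness holds for 1 probe set. Tuba1a, an alpha tubulin, was also read from an _x_at probe set, at intensities of 7771 and 10649 in p75, 9645 and 7459 in LM, 7268 and 6619 in OFT, and 7326 and 8821 in UM.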

How the data were processed

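The authors deposited 1 linear intensity per probe set and array, already scaled: the trimmed mean intensity was 149.951 to 149.957 on every array. The software was not given in the sources used here. Values were taken as log2(intensity + 32), so that an intensity of 0 is 5 and changes of dim genes are understated. Probe sets were named by the supplied platform annotation: 34945 had 1 gene, 932 several and 9211 none listed, and 13 Affymetrix control probe sets with a gene were left out.

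The model was fitted over all tested genes with limma 3.58.1 (lmFit, eBayes) in R 4.3.3, with terms for genotype and origin (residual df 3, prior df 9.18); the test of 1 pair against the others added an interaction term. P-values were adjusted by Benjamini-Hochberg with a threshold of 0.05. Both arrays of an origin counted as its replicates between origins, and p-values measure only the spread between these arrays. The number of arrays limits the precision. The fit was tested on simulated data with known changes and independent noise. Estimates were unbiased, which this design gives in advance and which does not test these arrays. For LM against UM several random draws recovered none of the changed genes, so a gene that did not pass there may still differ.

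The genes, the 15 further lists and the tests were chosen with earlier results of these data known. Named genes are the 9 genes, up to 4 per list and contrast with the largest difference, those that passed first, and the 6 genes most like Stmn2 and Stmn1 by Pearson correlation. Pseudocount, probe set, filter, scaling, trend and left-out arrays were varied. No genome build goes with the arrays; promoters are from RefSeq.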

Additional observations from a re-analysis of the deposited data

Results flagged for a closer look

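The mutant difference of Dcx in the UM pair, -0.88, stood far from the other pairs, which lay at -0.14, -0.13 and -0.05. The control read 135 and the mutant 58.6. The other bright Dcx probe set differed by -0.18 in that pair. Chance alone puts about 1 in 20 such groups of 4 past the limit, and 9 genes were examined.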

How the results depend on the processing

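Of the values computed for single genes under other settings or with an array left out, 114 of 117 in mutant against control, 140 of 153 in OFT against LM and UM, 137 of 153 in LM against UM and 141 of 153 in p75 against the others kept their direction and their side of the threshold. In mutant against control 0 of the 9 genes passed in any setting. The calls that moved are given beside the results, and their causes were not tested; they include Stmn1 in p75 after quantile normalization, at 0.6109. At a pseudocount of 1, which widens the spread of dim genes, 3 of the 9 genes passed for OFT with a median of 1.206, 0 passed in LM against UM and the p75 median was 1.796. At a pseudocount of 64 the medians were -0.4523 for LM against UM and 1.332 for p75. The mean of the probe sets of a gene gave a p75 median of 1.164 and turned Stmn1 in p75 to -0.03776, Map2 in OFT to -0.04624 and Mapt in LM against UM to -0.08039. Without probe sets ending in _x_at or _s_at Stmn1 was -0.3596 in p75 and -0.02465 in LM against UM, and after quantile normalization -0.03973 in LM against UM and -0.01491 in mutant against control. With no filter 1 gene passed in LM against UM. Against OFT alone the p75 median was 1.159 and Stmn4 was -0.8151.

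With 1 array left out at a time, 2 to 6 of the 9 genes passed for OFT and 1 to 3 for LM against UM, the latter with medians of -0.6625 to -0.4434, and the p75 median was 1.473 to 1.667. In LM against UM Stmn1 ranged from -0.1833 to 0.475, Dcx from -0.4584 to 0.3112 and Mapt from -0.1528 to 0.2715; Gap43 in OFT ranged from -0.6608 to 0.04555. With 1 pair left out, Stmn1 in mutant against control ranged from -0.05729 to 0.2374. Genes called over the whole table for OFT numbered 2060, and 1003 at a pseudocount of 1, 631 without the OFT control and 1032 without the OFT mutant; for LM against UM 210 were called, and 64 at a pseudocount of 1, 130 without the LM control, 111 without the UM control and 117 without the UM mutant. The p75 contrast called 6380, and 3238 without the p75 mutant. Where leaving out an array left 1 in an origin, that array was assumed to vary like the others. Dim probe sets limit Stmn4 and Mapt, which lay below 19.4 on 3 and 2 arrays.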

Other observations

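Markers of other cell types, from lists chosen with earlier results known, were read beside the 9 genes. In mutant against control 0 of them passed by limma, and the medians of the log2 differences were 0.41 over 8 skeletal muscle markers, 0.15 over 9 heart muscle markers, 0.09 over 6 erythroid and over 7 neural progenitor markers, -0.17 over 6 macrophage markers, -0.13 over 6 glial and crest stem markers, -0.07 over 7 endothelial markers, -0.04 over 13 proliferation markers and 0.00 after rounding over 8 face mesenchyme and 8 epithelial markers. An unadjusted p under 0.05 was reached by 5 of the skeletal muscle markers, 2 of the heart muscle markers, 1 of the erythroid markers, 1 of the glia and crest stem markers, 1 of the face mesenchyme markers and by 0 of the others.

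In OFT against LM and UM 9 of 9 heart muscle and 5 of 7 endothelial markers rose and 5 of 8 face mesenchyme and 2 of 7 neural progenitor markers fell. Also for OFT, 2 of 8 skeletal muscle, 1 of 8 epithelial and 1 of 6 macrophage markers rose, and 3 of 8 epithelial, 1 of 6 erythroid and 2 of 13 proliferation markers fell. In LM against UM 6 of 8 skeletal muscle and 3 of 9 heart muscle and 1 of 8 face mesenchyme markers rose, and 2 of 8 face mesenchyme and 2 of 8 epithelial markers fell. In p75 against the other origins 6 of 8 skeletal muscle and 1 of 9 heart muscle markers rose, and 7 of 8 epithelial, 6 of 7 endothelial, 6 of 9 heart muscle, 5 of 8 face mesenchyme, 4 of 6 macrophage, 2 of 6 erythroid and 7 of 13 proliferation markers fell.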
